A study of Mus musculus with 48 samples.

Results

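The T cell receptor complex and its coreceptors were examined through 10 genes: the CD3 subunits Cd3d, Cd3e, Cd3g and Cd247, the coreceptors Cd4, Cd8a and Cd8b1, the kinases Lck and Zap70, and the costimulatory receptor Cd28. They were picked by name for their role, with no threshold on their values but with earlier results of these data known, and all 10 were found among the 36854 genes of the deposited count table. Each of the 10 had counts in 48 of 48 tumours, the lowest single count being 11.

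The tumours were mouse soft tissue sarcomas of the hind limb, all on the 129/SvJae background, in 8 groups. Primary tumours (32, with 8 per group) arose in p53FL/FL mice aged 6 to 10 weeks, whose gastrocnemius muscle received an adenovirus carrying Cre, which deletes p53 in the infected cells, and then 300 µg of the carcinogen 3-methylcholanthrene (MCA). Allografts (16, with 4 per group) grew from 50000 cells of the sarcoma line 402230 placed in the same muscle of syngeneic mice, so that every allograft descends from 1 line, whereas each primary tumour has its own origin; tumour kind and that line cannot be told apart. At about 150 mm3 the mice received 200 µg of the murine anti-PD-1 antibody muDX400 or an isotype control by intraperitoneal injection, and the hind limb received 0 or 20 Gy. All tumours were collected 3 days later, so that a tumour kind, a dose and an antibody define each group. Without radiation under isotype, the first digit of the animal identifier, of unstated meaning, was 5 in every allograft and 4 in every primary tumour. Kind and digit cannot be told apart there, and the digit was not a covariate in the direct comparisons of kinds. Under anti-PD-1 without radiation both digits occurred in both kinds. Whole tumours were sequenced from poly(A) RNA. In such bulk samples, fewer T cells and less RNA per T cell cannot be told apart.

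T cells recognise peptide through the T cell receptor chains, which have no signalling tail of their own and rely on the CD3 gamma, delta and epsilon chains and the CD3 zeta chain (Cd247) for surface assembly and signalling. The coreceptors CD4 and CD8 bind MHC class II and class I and bring the kinase LCK to the receptor, LCK phosphorylates the CD3 tails, and ZAP70 docks there and carries the signal on. CD28 adds the costimulatory signal that PD-1 counteracts. Several of these transcripts are not restricted to T cells: NK cells use Cd247, Lck and Zap70, and some dendritic cells carry CD8 alpha.

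In mm10 coordinates, 3 of the CD3 genes share a stretch of chromosome 9: Cd3g on the minus strand at chr9:44969572-44980431, Cd3d on the plus strand at chr9:44981786-44987339 and Cd3e on the minus strand at chr9:44998740-45009627. Cd3g and Cd3d lie head to head with 1354 bases between them, and 11400 bases separate Cd3d from Cd3e. Cd8b1 (chr6:71322788-71337494, plus strand) and Cd8a (chr6:71373427-71379173, plus strand) are 35932 bases apart. Cd4 lies elsewhere on that chromosome, at chr6:124864692-124888221 on the minus strand. Cd247 (chr1:165788681-165877277), Zap70 (chr1:36761798-36782818) and Cd28 (chr1:60716800-60773359) lie on the plus strand of chromosome 1, and Lck (chr4:129548344-129573641) on the minus strand of chromosome 4. Exons of Cd247 overlap those of Pou2f1 on the opposite strand, which collected 34098 counts over the 48 tumours against 6753 for Cd247. The sources used here do not say whether counting used strand, so the values of Cd247 are uncertain to that extent.

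The promoters of the 3 neighbouring CD3 genes and of Cd8a are shown as examples of genes that were lower in primary tumours than in allografts. Those of Cd247, Lck and Zap70, whose levels followed the members' mean about as closely, are not printed. RefSeq (GRCm38.p6) had promoters for 7 of the 10 genes; Cd4, Cd8b1 and Cd28 are named only. Each runs 5′ to 3′ on the gene's own strand, from 250 bases before the start site to 50 bases from it onward, with matches to 5 motif strings in capitals.
Cd3g (chr9:44980382-44980681, minus strand): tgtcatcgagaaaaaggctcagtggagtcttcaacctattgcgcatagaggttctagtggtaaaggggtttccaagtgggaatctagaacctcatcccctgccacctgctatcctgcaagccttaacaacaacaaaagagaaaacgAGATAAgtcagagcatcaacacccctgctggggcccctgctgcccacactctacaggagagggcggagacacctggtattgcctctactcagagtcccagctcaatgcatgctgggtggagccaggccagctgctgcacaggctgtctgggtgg
Cd3d (chr9:44981536-44981835, plus strand): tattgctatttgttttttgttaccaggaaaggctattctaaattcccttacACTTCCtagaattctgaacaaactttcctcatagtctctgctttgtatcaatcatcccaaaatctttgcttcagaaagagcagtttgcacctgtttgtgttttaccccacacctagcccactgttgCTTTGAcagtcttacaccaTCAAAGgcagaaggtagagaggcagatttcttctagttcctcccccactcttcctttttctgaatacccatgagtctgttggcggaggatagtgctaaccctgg
Cd3e (chr9:45009562-45009861, minus strand): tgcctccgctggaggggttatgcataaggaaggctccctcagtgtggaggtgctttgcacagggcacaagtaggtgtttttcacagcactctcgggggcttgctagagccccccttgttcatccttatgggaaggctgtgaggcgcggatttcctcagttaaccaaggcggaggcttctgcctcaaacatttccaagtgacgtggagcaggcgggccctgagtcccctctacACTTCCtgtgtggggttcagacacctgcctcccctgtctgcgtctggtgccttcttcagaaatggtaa
Cd8a (chr6:71373177-71373476, plus strand): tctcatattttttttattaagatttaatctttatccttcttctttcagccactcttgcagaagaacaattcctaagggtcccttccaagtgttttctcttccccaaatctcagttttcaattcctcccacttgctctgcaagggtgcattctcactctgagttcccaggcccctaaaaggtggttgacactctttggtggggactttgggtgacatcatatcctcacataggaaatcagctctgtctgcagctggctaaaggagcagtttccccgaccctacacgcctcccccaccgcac
The strings were searched on both strands, and their shares are of 32851 promoters of this length. They were TGTGGT for RUNX factors (in 16.8%), GGAAGT for ETS factors (in 23.8%), AGATAA for GATA factors (in 11.2%), CTTTGA for TCF and LEF (in 16%) and CAGATG for E proteins (in 17.2%). Cd3g held the GATA string with its first base at -104 from the start site. Cd3d held the ETS string, as its reverse complement, at -199 and the TCF and LEF string at -73 and, as its reverse complement, at -54. Cd3e held the ETS string as its reverse complement at -18. Cd8a held none of the 5 strings in this window. Among the promoters not printed, Lck held the RUNX string at -58, and Lck and Cd247 held the ETS string. Zap70 and Lck each had more than 1 promoter entry. The RUNX string of Zap70, at -75, and its ETS string lay in the entry that begins at chr1:36764265. The Zap70 entry at the annotated gene start held only the TCF and LEF string, at -21. Cd247 held the TCF and LEF string as its reverse complement at 1. A match is a description of the letters only. The Cd3d window had 1 CpG and a GC content of 42.3%, against a median of 7 CpG and 52.7% over all promoters of this length, whereas Cd3e had 8 CpG and 56.7%.

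The 48 libraries held 31.8 to 54.0 M counts (median 41.2 M), with 0.371% to 2.71% from mitochondrial genes, and no library was a copy of another. Levels are given as CPM, a count scaled to a common library size and for composition. The groups were unequal in their spread, and in 3 of the 8 groups 1 tumour had the highest level for 10 of the 10 genes: replicate 4 of the irradiated primary tumours given anti-PD-1, replicate 4 of the unirradiated primary tumours given isotype and replicate 3 of the irradiated allografts given isotype. The median differences over the 10 genes that the first of these moves are also given without it, whereas the spread of its group and the correlations are given with all tumours.

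Per kilobase of exon, Cd3d (6.47 CPM per kb), Lck (5.86) and Cd8b1 (5.67) had the highest mean levels in unirradiated allografts given the isotype antibody, followed by Cd8a (4.996). Cd4 stood eighth of the 10 genes there, with 2.01 CPM per kb. In unirradiated primary tumours given isotype, the order of these per-length levels differed: Lck (2.61) and Cd4 (2.40) came first, and Cd8a (1.09) and Cd3d (1.36) were lower than both. Cd247 and Cd28 had the lowest per-length levels in both, from 0.300 to 0.696 CPM per kb.

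**Figure D1:**
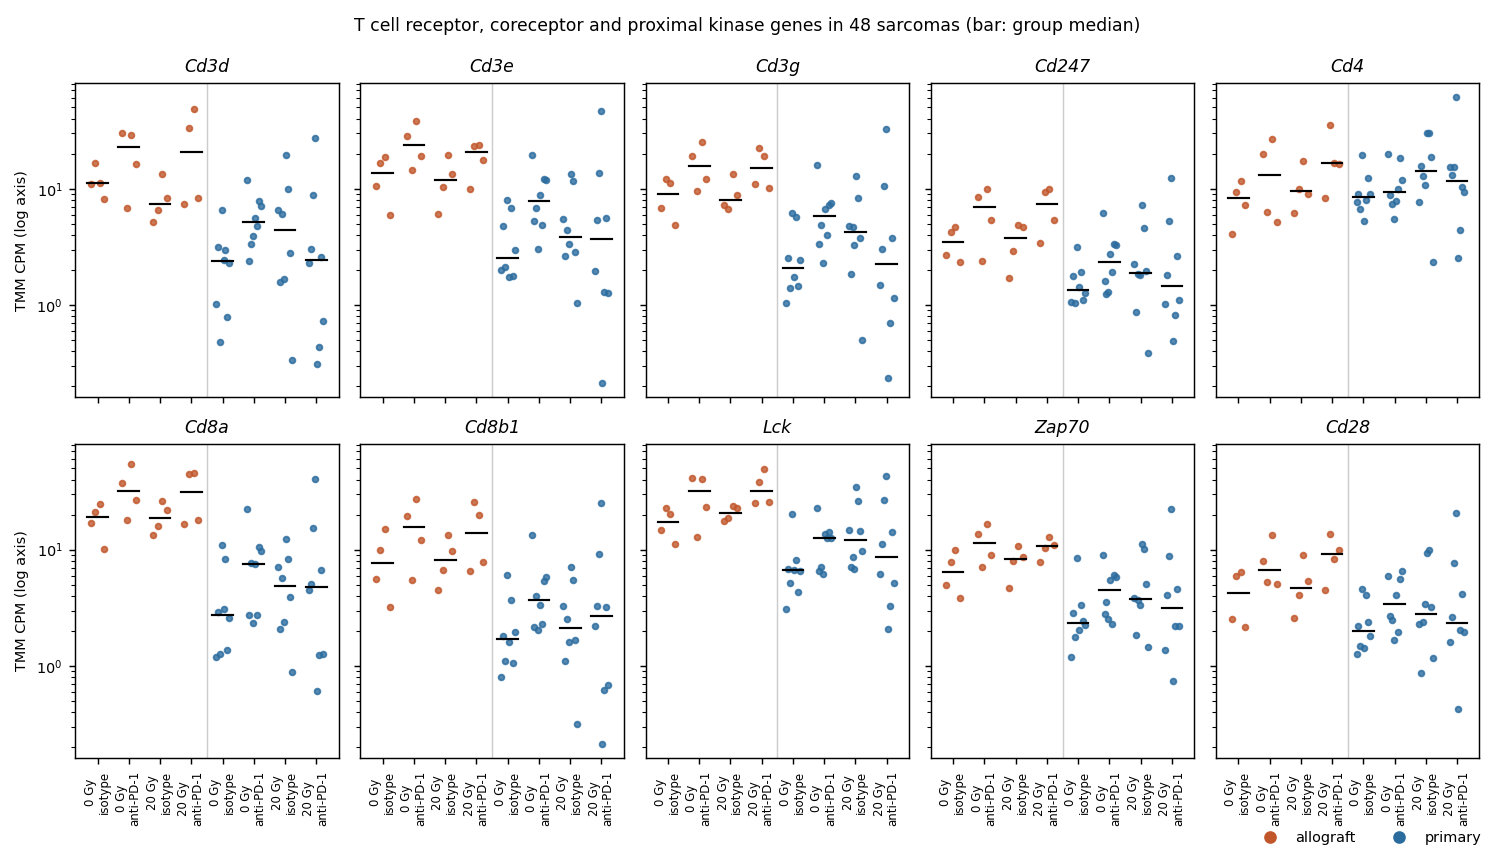
CPM of each of the 10 genes (log axis, 1 panel per gene) in the 8 groups; each point is 1 tumour and each bar a group median. Allografts (4 per group) lie above most primary tumours (8 per group) for Cd8a, whose levels were 10.1 to 54.1 CPM in allografts and 0.606 to 40.3 CPM in primary tumours, while the Cd4 panel shows no such step.

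The first comparison asked how the receptor genes differed between primary tumours and allografts given the same treatment. Without radiation, Cd3d, Cd3e and Cd8a were lower in primary tumours than in allografts under both antibodies, and the other genes passed under 1 antibody or neither. In edgeR's quasi-likelihood test, with Benjamini-Hochberg adjustment over all genes, 6 of the 10 genes passed (adjusted p under 0.05) under the isotype antibody and 5 of 10 under anti-PD-1, all of them lower in primary tumours. A fit of all 48 tumours, which share 1 estimate of the spread, left 1 and 0 of the 10, where it called 1993 and 1428 of 19327 genes. Over all genes in the fits of the 12 tumours compared, 10.0% passed under isotype (6.03% higher and 3.99% lower in primary tumours) and 8.94% under anti-PD-1 (4.94% higher and 3.99% lower). The median log2 difference over the 10 genes was -1.41 and -1.29, beside 0.01 and 0.02 over all genes tested.

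Cd3e, the CD3 epsilon chain found in every assembled receptor complex, had 10.6, 16.7, 18.7 and 5.90 CPM in the 4 unirradiated allografts given isotype. The 8 matching primary tumours ran from 1.76 to 7.98 CPM, with a median of 2.56. All but the lowest allograft lay above every primary tumour, and that one fell inside the primary range. The fitted log2 difference was -1.78 ± 0.46 (SE), with an adjusted p of 0.0285. Under anti-PD-1 the allografts had 28.1, 14.5, 38.5 and 19.2 CPM and the primary tumours 3.03 to 19.4 CPM (median 7.83). There the groups overlapped more, since the highest primary tumour exceeded the lowest 2 allografts, and the log2 difference was -1.44 ± 0.42 (adjusted p = 0.0485).

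Cd3d, the CD3 delta chain, was the one gene of the 10 whose unirradiated isotype groups did not overlap. The allografts had 11.1, 16.5, 11.2 and 8.18 CPM, above the primary range of 0.484 to 6.57 CPM (median 2.37). Such a separation with primary tumours lower was found for 2.89% of all genes, and 7.62% separated in either direction. The log2 difference of Cd3d was -2.26 ± 0.53 (adjusted p = 0.0182) under isotype and -1.78 ± 0.42 (0.0225) under anti-PD-1. For Cd3g, the CD3 gamma chain, the mean level was 8.77 CPM in allografts and 2.81 CPM in primary tumours under isotype, a log2 difference of -1.64 ± 0.47 (adjusted p = 0.044). Its difference under anti-PD-1 was -1.31 ± 0.44 and did not pass (0.0805). Cd247, the CD3 zeta chain, passed under isotype at -1.14 ± 0.33 (0.0446) but not under anti-PD-1, at -1.24 ± 0.45 (0.105).

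Cd8a, the alpha chain of the CD8 coreceptor, differed in the same direction. The unirradiated isotype allografts had 16.9, 21.0, 24.7 and 10.1 CPM and the primary tumours 1.202 to 10.98 CPM (median 2.77). Only the lowest allograft lay within the primary range, and the log2 difference was -2.19 ± 0.57 (adjusted p = 0.0283). Under anti-PD-1 the allografts had 37.4, 17.98, 54.1 and 26.7 CPM against 2.34 to 22.4 CPM (median 7.60), and the difference was -2.02 ± 0.53 (0.0339). The Cd8b1 gene for the beta chain, which pairs with CD8 alpha on conventional CD8 T cells, passed under isotype at -1.89 ± 0.53 (0.0397) and narrowly did not under anti-PD-1, at -1.70 ± 0.51 (0.0572).

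Cd4, the MHC class II coreceptor, did not pass in any of the 4 comparisons of tumour kind. In unirradiated tumours given isotype the allografts had 4.06, 9.42, 11.7 and 7.29 CPM and the primary tumours 5.33 to 19.4 CPM (median 8.52). These groups overlapped over most of their ranges, and the log2 difference of Cd4 was 0.25 ± 0.35 (adjusted p = 0.697). The difference was -0.34 ± 0.45 (0.708) under anti-PD-1. Over all treatments the mean Cd4 level was 13.1 ± 8.51 CPM (SD, n = 16) in allografts and 13.3 ± 10.95 CPM (SD, n = 32) in primary tumours, while Cd8a averaged 25.7 ± 12.9 and 6.73 ± 7.83 CPM.

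Lck, the kinase carried by both coreceptors, had 14.6, 22.7, 20.2 and 11.2 CPM in unirradiated isotype allografts and 3.07 to 20.3 CPM (median 6.66) in primary tumours. Its log2 difference did not pass there, at -1.17 ± 0.40 (adjusted p = 0.0837), and passed under anti-PD-1, at -1.28 ± 0.37 (0.0482). Zap70 followed the same course, with -1.13 ± 0.45 (0.131) and -1.27 ± 0.37 (0.0475). Cd28 passed under neither antibody, with -0.82 ± 0.42 (0.238) under isotype and -1.0 ± 0.40 (0.141) under anti-PD-1.

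In irradiated tumours the differences pointed mostly the same way and did not pass. Under isotype with 20 Gy, 0 of the 10 genes passed edgeR's test, against 4.76% of all genes (2.36% higher and 2.40% lower in primary tumours); 2 of them (Cd8a and Cd8b1) had an unadjusted p under 0.05, near the 19.9% of all genes that did, and DESeq2 called 1 (Cd8a) of the 10 and 1875 of 17588 genes. Cd8a had 13.3, 15.8, 26.3 and 21.98 CPM in those allografts and 0.885 to 12.3 CPM (median 4.84) in the primary tumours. These groups did not overlap, which held with primary tumours lower for 3.42% of all genes and in either direction for 5.75%, and the log2 difference of Cd8a was -1.81 ± 0.53 (adjusted p = 0.0683). With 20 Gy and anti-PD-1, 0 of 10 passed in edgeR, where 0.00566% of all genes passed. None had an unadjusted p under 0.05, against 16.8% of all genes. DESeq2 called none of the 10 and 1005 of 17634 genes, and the fit of all 48 tumours called none of the 10 and 1309 of 19327 genes. The median log2 difference over the 10 genes was -0.52 and -1.17 in these irradiated arms, beside 0.05 and 0.03 over all genes. The first became -0.93 without replicate 5 of the irradiated isotype primary tumours, and the second -2.01 without replicate 4 of the irradiated anti-PD-1 primary tumours. Whether the difference between kinds changed with radiation was tested as an interaction: 0 of 10 genes passed under either antibody by edgeR or DESeq2, none had an unadjusted p under 0.05, and 0.00517% and 0% of all genes passed in edgeR. DESeq2 called 4 of 4339 genes under isotype and 3 of 19311 under anti-PD-1.

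**Figure D2:**
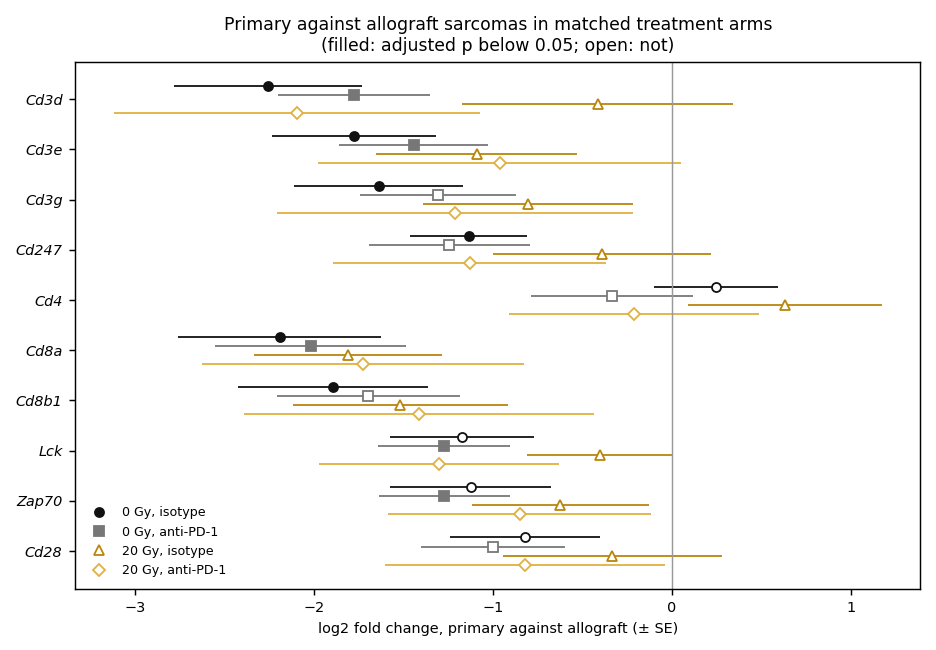
Log2 difference of primary tumours from allografts (horizontal axis; error bars, SE) for the 10 genes in the 4 treatment arms; filled points had an adjusted p under 0.05. Without radiation, 6 genes under isotype and 5 under anti-PD-1 are filled, Cd4 lies at 0.25 and -0.34, and no point is filled in the irradiated arms.

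These counts rested on few tumours. Under isotype without radiation, the count of genes that passed was 0 without allograft replicate 2, 1 without allograft replicate 1 or 3, 3 without primary replicate 1, 2, 3, 5, 7 or 8, 4 without allograft replicate 4, 6 without primary replicate 6, and 8 without primary replicate 4. Under anti-PD-1 it was 0 without allograft replicate 1 or 3, 1 without allograft replicate 4 or primary replicate 2, 3, 5 or 8, 2 without primary replicate 6 or 7, 3 without primary replicate 4, 6 without allograft replicate 2, and 8 without primary replicate 1. The size of the difference moved less: the median over the 10 genes stayed between -1.72 and -1.25 under isotype and between -1.59 and -1.05 under anti-PD-1 when any 1 tumour was left out.

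The balance of the coreceptors separated the tumour kinds in every arm. The log2 ratio of Cd8a to Cd4 CPM (each with 0.5 CPM added) was 1.13 ± 0.61 (SD, n = 4) in unirradiated isotype allografts and -1.45 ± 0.93 (SD, n = 8) in the matching primary tumours. Under anti-PD-1 without radiation it was 1.41 ± 0.62 and -0.65 ± 0.73. With 20 Gy it was 0.88 ± 0.33 and -1.50 ± 0.78 under isotype, and 0.71 ± 0.59 and -1.19 ± 0.78 under anti-PD-1. In each arm all 8 primary tumours lay below all 4 allografts. Since Cd8a (3637 exon bases) and Cd4 (4032) differ in length, only the ratio's difference between groups is read. The differences were -2.58, -2.06, -2.39 and -1.91, each with p = 0.00404 in a 2-sided exact permutation test, the smallest p this design can give, and an adjusted p of 0.0283 over the 28 ratio tests.

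Pooled over treatments, the ratio ran from 0.12 to 2.27 in allografts and from -2.77 to 0.17 in primary tumours, so that the kinds met at their edges only across different arms. With Cd8b1 in place of Cd8a, a choice made after seeing the data, the differences were -1.93, -1.50, -1.98 and -1.51. Relative to Cd3e, Cd4 was the gene that shifted more: its log2 ratio to Cd3e averaged -0.46 ± 0.60 (SD, n = 16) in allografts and 1.15 ± 0.81 (SD, n = 32) in primary tumours. The Cd8a to Cd3e ratio averaged 0.57 ± 0.27 and -0.05 ± 0.43. Neither ratio to Cd3e was tested, and Cd4 transcript can also come from macrophages and dendritic cells. The Cd8b1 to Cd8a log2 ratio averaged -1.16 ± 0.27 in allografts and -0.66 ± 0.27 in primary tumours, also untested.

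**Figure D3:**
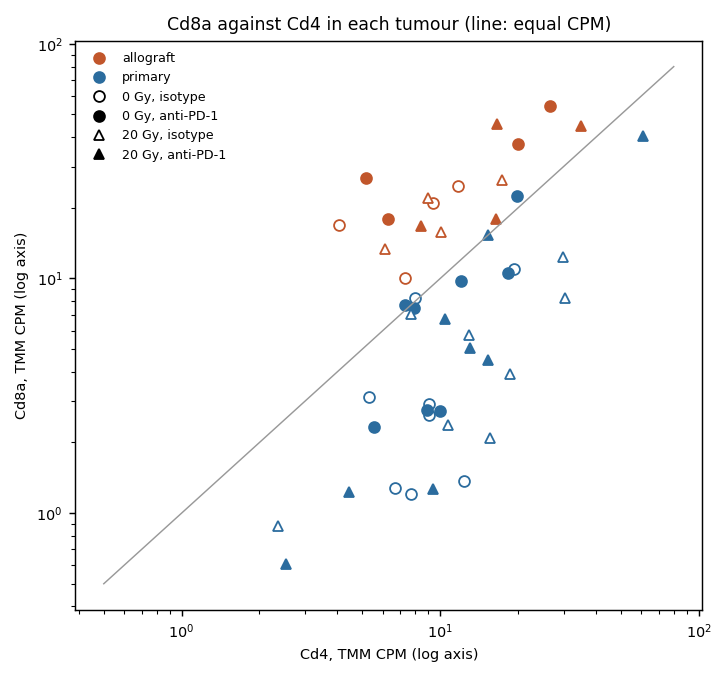
Cd8a against Cd4 CPM (log axes) in the 48 tumours, 1 point per tumour, coloured by kind, with dose as marker shape and antibody as fill. The line marks equal CPM without correction for exon length. Allografts lie on the Cd8a side of the line in 16 of 16 tumours, with log2 ratios from 0.12 to 2.27, and primary tumours mostly on the Cd4 side, from -2.77 to 0.17.

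The second comparison asked what 20 Gy did to the receptor genes 3 days later. None of the 10 genes passed in either tumour kind, although other genes did, in numbers that varied with the fit. In allografts 0 of 10 passed under isotype (5.14% of all genes, 4.40% higher and 0.744% lower) and 0 of 10 under anti-PD-1 (3.96%, 3.13% higher and 0.828% lower), with a median log2 difference of 0.10 and 0.02 over the 10 genes; with 1 tumour left out these ran from -0.12 to 0.35 and from -0.21 to 0.36. Neither arm had a gene of the 10 with an unadjusted p under 0.05, and DESeq2 called none. Over all genes, the 912 calls under isotype became 196 with the first digit of the animal identifier as a covariate, 372 in the fit of all 48 tumours and 1530 with DESeq2. The 703 under anti-PD-1 became 1 with only the 2 groups compared in the fit and 1664 with DESeq2. In primary tumours 0 of 10 passed under isotype (14.5% of all genes, 7.85% higher and 6.64% lower) and under anti-PD-1 (7.92%, 6.06% higher and 1.86% lower), with medians of 0.74 and 0.23; DESeq2 called none, and Lck under isotype was the only one with an unadjusted p under 0.05. With both antibodies averaged, again 0 of 10 passed in either kind by edgeR or DESeq2, with none under an unadjusted 0.05, while 13.7% of all genes passed in allografts (9.56% higher, 4.14% lower) and 26.3% in primary tumours (14.6% higher, 11.7% lower).

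Cd3e showed the pattern in allografts. It had 6.02, 10.4, 19.5 and 13.3 CPM after 20 Gy with isotype, against 10.6, 16.7, 18.7 and 5.90 CPM without radiation. The groups covered nearly the same range, and the log2 difference was -0.04 ± 0.42 (adjusted p = 0.977). In primary tumours given isotype, Cd3e ran from 1.76 to 7.98 CPM (median 2.56) without radiation and from 1.04 to 13.5 CPM (median 3.87) with it, a log2 difference of 0.58 ± 0.68 (0.598). Lck ran from 3.07 to 20.3 CPM (median 6.66) and from 6.86 to 34.3 CPM (median 12.1) in the same groups. Its difference of 1.01 ± 0.49 was the one with an unadjusted p under 0.05 and had an adjusted p of 0.169.

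Ptprc, the gene for the pan-leukocyte antigen CD45, moved differently. In allografts given isotype it had 106.6, 151, 222 and 95.4 CPM without radiation and 508, 310.2, 444 and 442 CPM after 20 Gy. The irradiated tumours all lay above the unirradiated ones, and the log2 difference was 1.59 ± 0.31 (edgeR, adjusted p = 0.00802). Under anti-PD-1 it was 1.47 ± 0.30 (0.0168). In primary tumours Ptprc rose under isotype by 1.09 ± 0.32 (0.0195), from a median of 80.7 to 162 CPM, and its difference of 0.88 under anti-PD-1 did not pass.

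Relative to Ptprc, Cd3e was lower after 20 Gy in the group means of both kinds, and the difference passed its test in 1 arm. The log2 ratio of Cd3e to Ptprc was -3.46 ± 0.34 (SD, n = 4) in unirradiated and -5.15 ± 0.79 in irradiated allografts given isotype. Under anti-PD-1 it was -2.91 ± 0.35 and -4.85 ± 0.51. In both arms all 4 irradiated tumours lay below all 4 unirradiated ones; the exact permutation p of 0.0286 was the smallest that 4 against 4 can give, and the adjusted p was 0.08. In primary tumours under anti-PD-1 the ratio was -3.64 ± 0.75 (SD, n = 8) without radiation and -5.18 ± 1.03 with it. This difference of -1.54 passed (2-sided exact permutation p = 0.00684, adjusted 0.0377), with 5 of 8 irradiated tumours below all unirradiated ones, but the adjusted p was under 0.05 in only 5 of 16 runs without 1 tumour, ranging from 0.0226 to 0.0638, and was 0.0566 with Cd3g in place of Cd3e. Under isotype the primary difference was -0.60 (adjusted p = 0.142). Between kinds, the ratio was lower in primary tumours without radiation under isotype, by -1.14 (exact permutation p = 0.00808, adjusted 0.0377, 7 of 8 below all allografts), but the adjusted p was above 0.05 in 11 of 12 runs without 1 tumour, reaching 0.097. In the other arms the ratio between kinds differed by -0.74 under anti-PD-1 without radiation (adjusted exact permutation p = 0.134), and with 20 Gy by -0.05 under isotype (0.939) and -0.33 under anti-PD-1 (0.696), and did not pass.

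**Figure D4:**
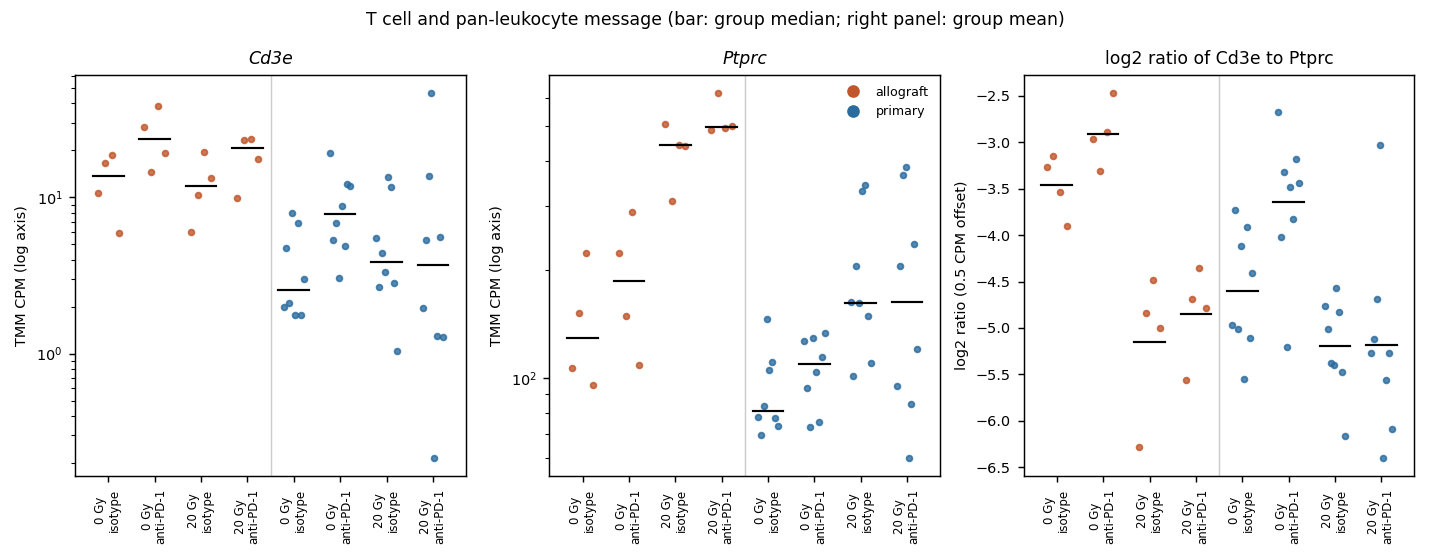
Cd3e CPM, Ptprc CPM (both on log axes) and the log2 ratio of Cd3e to Ptprc in the 8 groups; points are tumours, bars are group medians for CPM and means for the ratio. In allografts, the Ptprc points rise from 95.4 to 288 CPM without radiation to 310.2 to 620 CPM with it, and the ratio lies between -3.91 and -2.47 without radiation and between -6.29 and -4.35 with it.

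The third comparison asked what anti-PD-1 did to the receptor genes. In allografts all 10 genes had positive log2 differences at both doses, as did 49% and 47.7% of all genes at 0 and 20 Gy. However, 0 of 10 passed edgeR's test at 0 Gy or at 20 Gy, and 0% of all genes passed. The median difference over the 10 genes was 0.88 at 0 Gy (range 0.76 to 0.94) and 0.76 at 20 Gy (range 0.36 to 1.51), beside 0 and -0.02 over all genes. The first became 0.55 without replicate 3 of the unirradiated anti-PD-1 allografts. At an unadjusted p under 0.05 there were 5 of the 10 at 0 Gy (Cd3e, Cd3g, Cd8a, Lck and Zap70) and 2 at 20 Gy (Cd3d and Lck), where 1.68% and 3.84% of all genes reached that level; DESeq2 called none. With both doses averaged, 0 of 10 passed (0% of all genes), 8 of 10 had an unadjusted p under 0.05 against 3.78% of all genes, and DESeq2 again called none. The 10 genes ran together, with a median correlation of 0.881 between pairs within the 16 allografts. These counts are therefore not 10 separate observations.

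Cd8a illustrates the overlap behind these numbers. At 0 Gy it had 16.9, 21.0, 24.7 and 10.1 CPM with isotype and 37.4, 17.98, 54.1 and 26.7 CPM with anti-PD-1. Replicates 1, 3 and 4 of the antibody group lay above all isotype tumours and replicate 2 among them, for a log2 difference of 0.89 ± 0.40 (unadjusted p = 0.0425, adjusted 1). Lck was the one gene whose irradiated groups separated: 17.6, 18.7, 23.8 and 22.7 CPM with isotype against 25.03, 38.5, 49.0 and 25.6 CPM with anti-PD-1. That separation, with anti-PD-1 higher, held for 0.902% of all genes (1.49% in either direction). The Lck difference was 0.70 ± 0.33 (adjusted p = 0.682).

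In primary tumours, all 10 genes again had positive differences at 0 Gy (median 0.90, beside -0.03 over all genes), as did 42.5% of all genes. At 20 Gy 8 of 10 did (median 0.31, beside 0.02), against 53.7% of all genes. None passed edgeR at either dose, where 0% of all genes passed, none had an unadjusted p under 0.05 and DESeq2 called none. With both doses averaged, 0 of 10 passed (0% of all genes) and DESeq2 called none, while Cd3e and Cd8b1 had an unadjusted p under 0.05, as did 5.22% of all genes. Cd3e ran from 1.76 to 7.98 CPM (median 2.56) with isotype and from 3.03 to 19.4 CPM (median 7.83) with anti-PD-1 at 0 Gy. The ranges overlapped, and the log2 difference was 1.26 ± 0.68 (unadjusted p = 0.0765, adjusted 1). Without replicate 4 of the irradiated anti-PD-1 group, the median over the 10 genes at 20 Gy turned from 0.31 to -0.53, and that for 20 against 0 Gy under anti-PD-1 from 0.23 to -0.61. Interactions of antibody with tumour kind, at 0 or 20 Gy, and of dose with antibody in either kind gave 0 of 10 genes by edgeR or DESeq2, none with an unadjusted p under 0.05, and 0% of all genes by edgeR. Over all genes, DESeq2 called 1 at 0 Gy and 2 at 20 Gy for antibody with kind. For dose with antibody it called 0 in allografts and 1 in primary tumours.

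The combination of 20 Gy and anti-PD-1 was compared with 0 Gy and isotype, a control group that the separate comparisons share. All 10 genes had positive differences in both kinds, as did 46.5% of all genes in allografts and 48.5% in primary tumours. The median over the 10 genes was 0.91 in allografts and 1.17 in primary tumours. In either kind 0 of 10 passed, against 9.66% of all genes in allografts (7.43% higher, 2.23% lower) and 13.8% in primary tumours (8.78% higher, 4.98% lower). Lck came nearest in allografts: 14.6, 22.7, 20.2 and 11.2 CPM with 0 Gy and isotype and 25.03, 38.5, 49.0 and 25.6 CPM with the combination. The groups did not overlap, as for 8.94% of all genes with the combination higher. The Lck difference was 1.0 ± 0.33 (edgeR, adjusted p = 0.0699), DESeq2 gave an adjusted p of 0.0267, and a fit over all 48 tumours gave 0.421. In allografts 5 of the 10 (Cd247, Cd28, Cd3g, Cd4 and Lck) had an unadjusted p under 0.05, against 24.4% of all genes, and DESeq2 called Lck alone of the 10 and 2626 of 17655 genes. In primary tumours none of the 10 did and DESeq2 called none, and the median fell to 0.21 without replicate 4 of the combination group. The difference between the kinds in this response gave 0 of 10 by edgeR or DESeq2, 0 with an unadjusted p under 0.05 and 0% of all genes by edgeR. DESeq2 called 4 of 19311 genes.

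The 10 genes' median spread between tumours of a group exceeded that of the median gene in all 8 groups, although some single genes, such as Lck in irradiated isotype allografts (SD 0.207), did not. The median SD of their log2 CPM (0.5 added) was 0.573 to 0.724 in the 4 allograft groups, where the median gene had 0.219 to 0.335. In primary tumours it was 0.762 with isotype and 0.668 with anti-PD-1 without radiation, and 1.05 and 1.56 with 20 Gy, beside 0.307 to 0.406 for the median gene. The widest group, irradiated primary tumours given anti-PD-1, held both extremes: replicate 4 was highest and replicate 5 lowest for 10 of the 10 genes. Cd3e ran there from 0.215 to 46.8 CPM (median 3.68), a 217-fold range, and Cd4 from 2.52 to 60.9 CPM (median 11.7), a 24.2-fold range. Replicate 4 also had the highest summed macrophage markers of its group (5924 CPM, against 823 in replicate 5), 386 CPM of Ptprc (59.9 in replicate 5) and the highest summed skeletal muscle markers (76828 CPM, against 23.2). The part of these in the values was not tested. Replicate 4 of the unirradiated isotype primary tumours was likewise highest for 10 of 10 genes, with the highest summed NK markers (102.5 CPM, the next tumour 47.6) and B cell markers (11.2 CPM, the next 7.11) and the lowest summed muscle markers (58.7 CPM) of its group. The part of these was not tested either. Among irradiated isotype allografts, replicate 3 was highest for 10 of 10.

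Across tumours the genes ran together, and over all 48 tumours Cd4 less closely than the rest. Over the 48 tumours the Pearson correlation of log2 CPM had a median of 0.922 over the 45 pairs, described without a test since pairs share libraries, depth and group differences. It was 0.833 to 0.978 for the 36 pairs without Cd4 and 0.529 to 0.739 for the 9 pairs with Cd4. With group means removed, the pairs with Cd4 had 0.731 to 0.820, which overlapped the others (0.7999 to 0.969), and the median over all pairs was 0.905; it was 0.881 within the 16 allografts, where the pairs with Cd4 (0.660 to 0.881) overlapped the others (0.670 to 0.974), and 0.906 within the 32 primary tumours. Within the primary tumours the pairs with Cd4 (0.7428 to 0.8165) lay below all the others (0.829 to 0.978). With 0.1 CPM added in place of 0.5, they overlapped there (0.741 to 0.821 against 0.813 to 0.975). Cd8a and Cd8b1 had a correlation of 0.977, the head-to-head pair Cd3d and Cd3g 0.952, and Cd4 and Cd8a 0.529.

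**Figure D5:**
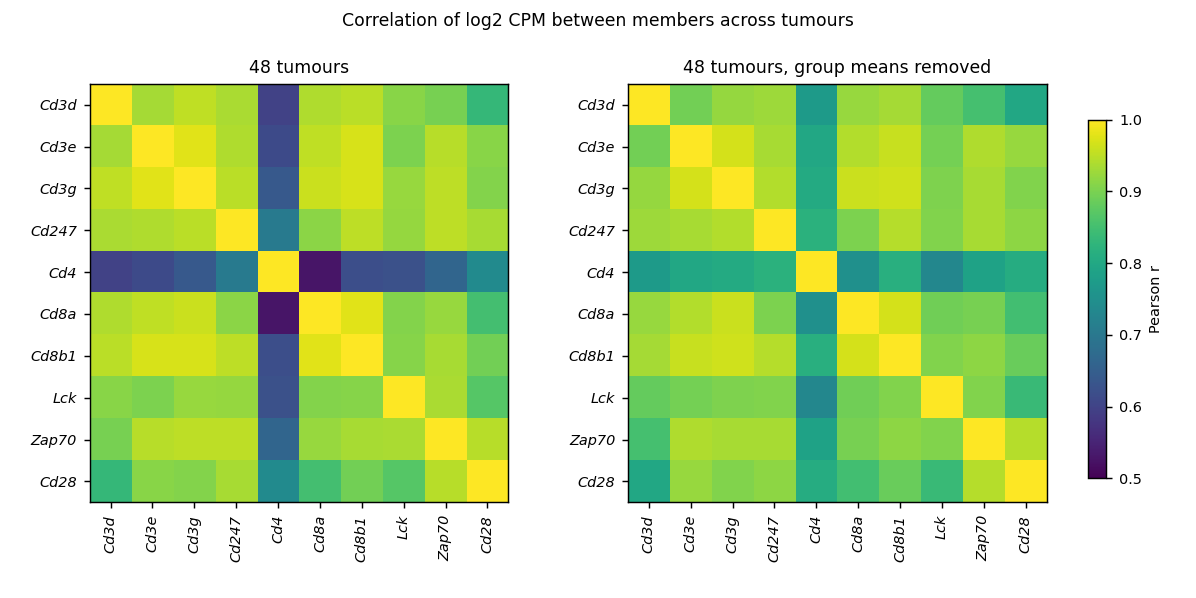
Pearson correlations of log2 CPM between the 10 genes over 48 tumours, as measured and with group means removed. The Cd4 row and column stand out on the first map, at 0.529 to 0.739 against 0.833 to 0.978 for the other pairs, and less so on the second, at 0.731 to 0.820.

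Likeness to the members' mean over the 48 tumours was ranked over 15730 genes averaging 0.5 CPM or more. Among the 10 non-members that came first were Cd27 (r = 0.984), Trac (0.977), Gimap7 (0.977), Ptprcap (0.971), Cd2 (0.971), Themis (0.966), Ubash3a (0.964), Cd6 (0.961) and Gimap3 (0.956). Trac is the constant region of the receptor's alpha chain, and Cd2 and Cd6 are T cell surface receptors. The same measure was 0.716 for the member Cd4, 0.737 for Ptprc, 0.417 for the macrophage marker Adgre1 and 0.381 for the NK cell receptor Ncr1. With group means removed, these 4 values were higher, at 0.861, 0.839, 0.613 and 0.632. The non-members named above then had 0.957 (Gimap3) to 0.979 (Cd27).

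Genes around the receptor were followed in lists, whose counts stand beside the shares of all genes called in each direction: 4.40% higher after 20 Gy in allografts and 7.85% in primary tumours given isotype, and 6.03% higher and 3.99% lower in primary tumours than in allografts without radiation under isotype. Under anti-PD-1 the shares were 3.13% higher after 20 Gy in allografts and 6.06% in primary tumours. Between kinds without radiation under anti-PD-1 they were 4.94% higher and 3.99% lower in primary tumours. Counts of 1 or 2 genes in a list are given as counts and not read as a result about the list. Of 7 T cell receptor constant chain genes, 6 were tested: Trbc2 was lower in primary tumours under isotype without radiation (log2 difference -2.12 ± 0.47, edgeR adjusted p = 0.014) and Trbc1 under anti-PD-1 (-1.55 ± 0.32, 0.0116). After 20 Gy, Trdc of the delta chain, used by gamma delta T cells, rose in primary tumours given isotype (1.5 ± 0.47, 0.0304) and in allografts given anti-PD-1 (1.59 ± 0.37, 0.0288). The median over the 6 was -0.62 and -0.77 for the kinds without radiation. In allografts under the combination, 3 of 6 rose (Trdc, Trbc1 and Tcrg-C4), where 7.43% of all genes rose.

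Genes of proximal receptor signalling were next. After 20 Gy, 7 of 20 rose and 0 fell in allografts given isotype (list median 0.40), among them the exchange factor Vav1 (1.40 ± 0.26, adjusted p = 0.00654) and Rasgrp1. In primary tumours given isotype 6 rose and 1 fell (median 0.88), including the adaptor Lcp2 (0.96 ± 0.24, 0.00698), with Plcg1 the one that fell. Under anti-PD-1 3 of 20 rose in each kind, where 3.13% of all genes rose in allografts and 6.06% in primary tumours. Under the combination 10 of 20 rose in allografts (7.43% of all genes) and 3 of 20 in primary tumours (8.78%), with 0 falling. Vav1 and Lcp2 are also used by myeloid cells. Between kinds without radiation, 2 of 20, among them Themis, were lower and 1, Fyn, was higher in primary tumours under isotype, and 5 of 20 were lower under anti-PD-1, among them Malt1 (-0.85 ± 0.18, 0.0133).

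Ligands of CD28 and PD-1 and MHC partners of the coreceptors were a further list. Of 10 such genes, 4 rose in allografts given isotype (median 0.85) and 7 in primary tumours given isotype (median 1.03), and 2 and 3 rose under anti-PD-1, with 0 falling. Cd274, which encodes the PD-1 ligand PD-L1, rose by 2.90 ± 0.42 (edgeR, adjusted p = 5.63e-05) in primary tumours and by 1.75 ± 0.40 in allografts given isotype, and Cd80, a CD28 ligand, by 2.21 ± 0.34 in the primary tumours. Between kinds without radiation, 4 of 10 were lower in primary tumours under isotype, among them the class II genes H2-Ab1 (-1.54 ± 0.33, 0.012) and H2-Eb1, and 2 of 10 under anti-PD-1, with Cd274 at -2.10 ± 0.40 (0.00804).

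Of 15 surface accessory genes, 2 rose after 20 Gy in allografts given isotype, among them the activation marker Cd69 (2.20 ± 0.33, edgeR adjusted p = 0.00225), and 4 in primary tumours given isotype, again with Cd69. Without radiation 5 of 15 were lower in primary tumours under isotype (median -1.14), among them Icos and Cd226 (-1.54 ± 0.35, 0.0163), and 3 of 15 under anti-PD-1. Of 15 negative regulators, 3 rose in allografts given isotype, with the phosphatase Ptpn22 at 1.40 ± 0.20 (0.00167), and 2 in primary tumours given isotype, with Ptpn6 at 1.14 ± 0.27 (0.00466); none fell. Of 15 T cell transcription factors, 2 rose in allografts given isotype (Eomes and Zbtb7b), and 1 fell in primary tumours given isotype (Ets1, -0.60 ± 0.17, 0.0189). Anti-PD-1 against isotype gave 0 calls in all of these lists at both doses in both kinds by edgeR, where 0% of all genes passed.

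Markers of other cell types were followed in the same tumours. Without radiation under isotype, NK markers summed to 56.2 to 83.7 CPM in allografts. In primary tumours they summed to 14.3 to 47.6 CPM in all but replicate 4, which had 102.5 CPM, so that 7 of 8 primary sums lay below every allograft. Under anti-PD-1 all 8 primary sums (8.96 to 48.9 CPM) lay below the allografts (57.9 to 91.8 CPM). Single NK markers did not all follow the sum: under isotype 3 of 8 were higher in primary tumours, Klri2 by 5.99 ± 0.94 on the log2 scale. Klra4 and Klrk1 had the highest levels of the list, with medians of 21.2 and 15.9 CPM over the 48 tumours. Without radiation Ncr1, the list's first marker, had medians of 1.94 CPM in allografts and 2.94 CPM in primary tumours under isotype. Under anti-PD-1 these were 2.77 and 2.69 CPM. Macrophage markers summed to 1697 to 2542 CPM and 1759 to 3528 CPM, with 1 of 8 higher in primary tumours (Mrc1), while skeletal muscle markers summed to 67.8 to 18363 CPM and 58.7 to 5798 CPM, with a list median of -1.81. After 20 Gy in allografts given isotype, macrophage markers summed to 3030 to 4900 CPM and 2 of 8 rose, and 1 of 7 NK markers rose, Ncr1 by 1.24 ± 0.34. In primary tumours given isotype, muscle markers reached 42368 CPM after 20 Gy (list median of the log2 difference 2.13). B cell markers summed to at most 20.4 CPM in any tumour, and dendritic cell markers to at most 57.2 CPM. The lymph node venule gene Glycam1 was at 0 in 17 of 48 tumours and at most 0.461 CPM, whereas Ccl21a, also made by lymphatic vessels, ran from 0.0978 to 414 CPM. The part of these cells in the receptor genes' values was not tested.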

How the data were processed

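The authors deposited raw counts per gene for 48 tumours in 1 table. Per the submitters' processing notes, Trimmomatic 0.36, STAR and HTSeq were used with the mm10 build; the roles, the annotation release and the strand setting are not given in the sources used here. Per the labels' protocols, libraries were made with a stranded poly(A) kit from RNA with a RIN above 7.

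Symbols and exon lengths came from GENCODE M21, which named 36796 of the 36854 deposited gene identifiers (58 unmatched). Tests used edgeR 4.0.16 (quasi-likelihood, TMM, filterByExpr by group, R 4.3.3, limma 3.58.1) on the deposited counts, with Benjamini-Hochberg adjustment over all genes tested and a call at an adjusted p under 0.05. Fits held the 16 allografts, the 32 primary tumours, or, between kinds, the 12 tumours compared; interactions used all 48. Standard errors were derived from the F statistic. Ratios were tested by 2-sided exact permutation (scipy 1.17.1) in 28 tests. DESeq2 1.42.0, DESeq2 size factors, total counts, no filter, other sample sets, a covariate, other pseudocounts (0.1 and 2 CPM) and each tumour left out were the alternatives.

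The 10 genes and the lists were chosen with earlier results of these data known. All 10 are named whatever their values; from each list, up to 4 called genes with the smallest p were eligible, and from all genes the 10 most like the members' mean. Some genes that this rule names are not reported here. Each tumour has its own identifier in the titles, and p-values measure the spread between these tumours.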

Additional observations from a re-analysis of the deposited data

Results flagged for a closer look

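In 17 of 96 sets of 4 or 8 tumours (10 genes and 2 ratios in 8 groups), the highest tumour lay farther from the next one than Dixon's 95% limit allows. CPM were taken on their linear scale. Chance flags about 1 in 20 groups of normally distributed values, which CPM need not follow. All 17 came from 3 primary tumours. Replicate 4 of the irradiated primary tumours given anti-PD-1 had 27.5 CPM of Cd3d, 46.8 of Cd3e, 32.7 of Cd3g, 12.5 of Cd247, 60.9 of Cd4, 40.3 of Cd8a, 25.3 of Cd8b1, 22.5 of Zap70 and 20.7 of Cd28. The next tumour of that group had 13.8 CPM of Cd3e and 15.3 of Cd4. Replicate 4 of the unirradiated primary tumours given isotype had 6.57 CPM of Cd3d, 3.13 of Cd247, 20.3 of Lck and 8.47 of Zap70. Replicate 1 of the unirradiated primary tumours given anti-PD-1 had 16.1 CPM of Cd3g, 6.16 of Cd247, 22.4 of Cd8a and 13.5 of Cd8b1.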

How the results depend on the processing

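Counts of the 10 genes that passed were 0 under every alternative that was run in 21 of 25 comparisons. In allografts, the combination against isotype without radiation gave 1 (Lck) with DESeq2 and 1 with the first digit of the animal identifier, of unstated meaning, as a covariate. Primary against allograft without radiation gave, under isotype, 6 as reported, 4 with no filter, 7 with DESeq2, 1 in a fit of all 48 tumours and 0 to 8 with 1 tumour left out; under anti-PD-1, 5 as reported, 7 with DESeq2, 3 with total counts, 2 with no filter, 0 in the fit of 48 and 0 to 8 with 1 left out. DESeq2 also called more of all genes there, 2868 against 1738 under isotype and 2756 against 1560 under anti-PD-1. With 20 Gy and isotype, DESeq2 gave 1, and 0 to 1 passed with 1 left out. The Cd8a to Cd4 differences between kinds stayed between -2.81 and -2.32, -2.23 and -1.77, -2.58 and -2.23, and -2.10 and -1.67 with 1 tumour left out; without an allograft tumour the adjusted p was above 0.05, up to 0.0679, where fewer tumours raise the smallest possible p. For Cd3e to Ptprc, primary tumours after 20 Gy differed by -0.67 under isotype with 2 CPM added (adjusted exact permutation p = 0.0261), and under anti-PD-1 by -1.48 with Cd3g in place of Cd3e, chosen after seeing the data (0.0566), and by -1.84 to -1.36 with 1 left out. In unirradiated primary tumours, anti-PD-1 against isotype gave a difference of 0.95 in this ratio and did not pass (exact permutation p = 0.0188, adjusted 0.0752). With 1 tumour left out it ran from 0.82 to 1.18, and 1 of 16 runs had an adjusted p under 0.05 (0.0226). Between kinds under isotype without radiation that ratio differed by -1.27 with 0.1 CPM added, -0.80 with 2 CPM added and -1.01 with Cd3g, none of which passed (adjusted exact permutation p = 0.0566, 0.0647 and 0.0566), and by -1.28 to -1.0 with 1 left out. With 2 CPM added, the median SD of the 10 genes was 0.527 and 0.768 in primary tumours given isotype without and with radiation, and 1.21 with radiation and anti-PD-1. Of 210 treatment and interaction values of single genes, 24 changed sign under a setting and 88 with 1 tumour left out; of 40 between kinds, 0 and 3 did. The causes were not tested. No paired analysis was possible because the labels give no replicate numbers shared between groups. Each of the 10 genes had at least 11 counts in every tumour; the effect of depth was not tested.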
